A study of Mus musculus with 19 samples.

Results

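MicroRNA biogenesis and silencing in mouse cells were followed here through 10 genes: Drosha, Dgcr8, Xpo5, Dicer1, Tarbp2, Ago1, Ago2, Tnrc6a, Tnrc6b and Tnrc6c. They were chosen by gene symbol for their place in the pathway. All 10 were among the 12778 genes of the deposited expression matrix. The question was whether this machinery responds when the microRNA clusters that dominate pluripotent cells, miR-290 and miR-302, are deleted.

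The 19 libraries came from 6 groups of mouse cells, all grown in medium with LIF (a cytokine that sustains mouse pluripotency) and FBS. The 4 iPSC groups were made by reprogramming embryonic fibroblasts with Oct4, Sox2 and Klf4 and were collected over 18 passages later. They were WT (3 libraries), miR-290KO, miR-302KO and the combined miR-290KO;miR-302KO (double KO), each knockout with 2 colonies and 2 libraries per colony. The 2 ESC groups, miR-290KO and miR-302KO, were derived directly as embryonic stem cells and had 2 libraries each. A WT ESC group was not analysed here. Each knockout colony is described as a separate derivation, but the WT iPSC are excepted from that statement, so the spread among WT libraries may be that of a single derivation. The libraries were 3′-end mRNA libraries, in which 1 read stands for 1 transcript end, and held 6143309 to 23828601 reads in the genes whose reads could be recovered. Levels are given as CPM, the reads of a gene scaled to the total of its library. Differences are log2 differences fitted with limma on the deposited log2 values, with each colony as 1 sample and p-values adjusted over all 12778 genes. A gene is called changed at an adjusted p under 0.05.

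A microRNA is cut from its primary transcript in the nucleus by the Microprocessor, made of the RNase III enzyme Drosha and its RNA-binding partner Dgcr8. Exportin-5, the product of Xpo5, carries the hairpin to the cytoplasm, where Dicer1 with its cofactor Tarbp2 trims it to a duplex. An Argonaute protein keeps 1 strand as a guide, and a GW182 protein, encoded by Tnrc6a, Tnrc6b or Tnrc6c, links it to the enzymes that remove poly(A) tails and silence the target mRNA. Pairing of bases 2 to 8 of the microRNA, the seed, with the 3′ untranslated region (3′ UTR) of the mRNA sets most of its targets.

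The mature sequences of the deleted clusters are shown because their shared seed defines which mRNAs they can pair with. They were read from RefSeq (GRCm38.p6), 5′ to 3′, with the seed in capitals. The mature forms of the miR-290 cluster lie within chr7:3218638-3220837 and those of the miR-302 cluster within chr3:127545238-127545800. Of the mature forms read, which leave out miR-302a-3p and miR-292a-3p (not analysed here), 5 shared the seed AAGUGCU, 3 from miR-290 and 2 from miR-302.
miR-291a-3p: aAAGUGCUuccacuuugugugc
miR-294-3p: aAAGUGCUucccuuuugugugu
miR-295-3p: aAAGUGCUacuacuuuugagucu
miR-302b-3p: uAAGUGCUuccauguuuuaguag
miR-302d-3p: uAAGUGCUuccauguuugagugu
miR-302c-3p: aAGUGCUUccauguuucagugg
miR-290a-3p: aAAGUGCCgccuaguuuuaagccc
The last of the miR-302 forms carries the same letters displaced by 1 base, as its 5′ end is listed, and miR-290a-3p differs from the shared seed in its last base.

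The 3′ UTRs of the 10 genes were searched on the transcribed strand for AGCACTT, the complement of the seed, for the same letters followed by A (AGCACTTA), and for GCACTTA. Of the 11760 genes with a 3′ UTR in GENCODE M21 (GRCm38, the mm10 assembly), 19.4% held at least 1 of these and 3.4% held AGCACTTA. Of the 10 genes, 4 held at least 1 and 0 held AGCACTTA. Their 6 matches follow, in capitals within 30 bases of the 3′ UTR, to show the letters searched for. In AGCACTT all 7 letters can pair with the shared seed, and in GCACTTA the first 6 can, while the last A lies opposite base 1 of the microRNA, outside the seed. No letters of this kind were found in the annotated 3′ UTRs of Drosha, Dgcr8, Xpo5, Tarbp2, Ago2 or Tnrc6a. The 4 genes with a match have 3′ UTRs of 2588 to 11609 bases, beside a median of 1009 bases over all genes, while Ago2, at 11064 bases, has none. A match is a description of letters and was not tested as a binding site.
Dicer1, chr12:104690153-104690182, minus strand: catgtaatgctGCACTTAggttcaagtcac
Ago1, chr4:126438806-126438835, minus strand: aaggcactatgGCACTTAgctctgaggtga
Ago1, chr4:126435292-126435321, minus strand: tgtatgatgttGCACTTAgcagccatgtgg
Tnrc6b, chr15:80931317-80931346, plus strand: gggaacatgctAGCACTTgtgtgatatccc
Tnrc6b, chr15:80935707-80935736, plus strand: ccttttatcccAGCACTTgagaggcagaag
Tnrc6c, chr11:117762123-117762152, plus strand: gcggccggccgAGCACTTggacgtggtggt

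The label iPSC was checked against 12 pluripotency markers. The summed level of the 11 with recovered reads (all but Dppa5a) was 3152 to 5114 CPM in every WT and single-knockout iPSC library but 60.82 to 119.2 CPM in the double KO libraries. All 12 were called lower in double KO. Nanog, a core pluripotency factor, was at 1.834 to 2.9 CPM in double KO and 681.4 to 739.8 CPM in WT. Of 14 fibroblast markers, 5 were in the matrix, with sums of 5.075 to 30.75 CPM in double KO and 7.798 to 10.91 CPM in WT, and of 9 extraembryonic markers 5 were in the matrix, with sums of 11.45 to 64.94 and 62.67 to 142.3 CPM and Gata4 at 0 reads in double KO. Every double KO difference below therefore sets cells that had nearly lost pluripotency markers against cells that had them, and genotype and cell state cannot be told apart. In such bulk samples, fewer cells of a type and less RNA per cell cannot be told apart either. The second library of miR-302KO iPSC colony 1 stood apart from its group (mean correlation 0.852 with the other 3 libraries, against 0.904 or more for every other library with its own group), and values of the 10 genes that it moves by over 1.5 times are given with and without it. The mRNA libraries do not measure the mature microRNAs and so do not check the deletions.

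In cells without both clusters, Xpo5 and Dicer1 fell against WT iPSC and the 3 GW182 genes Tnrc6a, Tnrc6b and Tnrc6c rose. Tarbp2, the Microprocessor genes and the Argonaute genes did not pass the test. That is 5 of 10 genes called, beside 49% of all genes tested (27.4% called higher and 21.5% called lower), so the number called was near that of the transcriptome at large. The median difference over the 10 genes was -0.09 and that over all genes 0.16. With median-of-ratios scaling the all-gene median was -0.04 and with each library centred on its median gene -0.27, and the share of calls that were higher went from 56% to 46.1% and 35.6%. In the 3 knockout comparisons the same WT libraries serve as controls, so those values are not independent of each other. In miR-290KO iPSC against WT 1 of the 10 genes was called, Ago1 (1.57% of all genes called). In miR-302KO iPSC against WT 0 of 10 were called (0.0313% of all genes called). Of all calls in miR-290KO against WT 77.1% were higher, and 55.1% and 45.6% with those scalings.

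**Figure D1:**
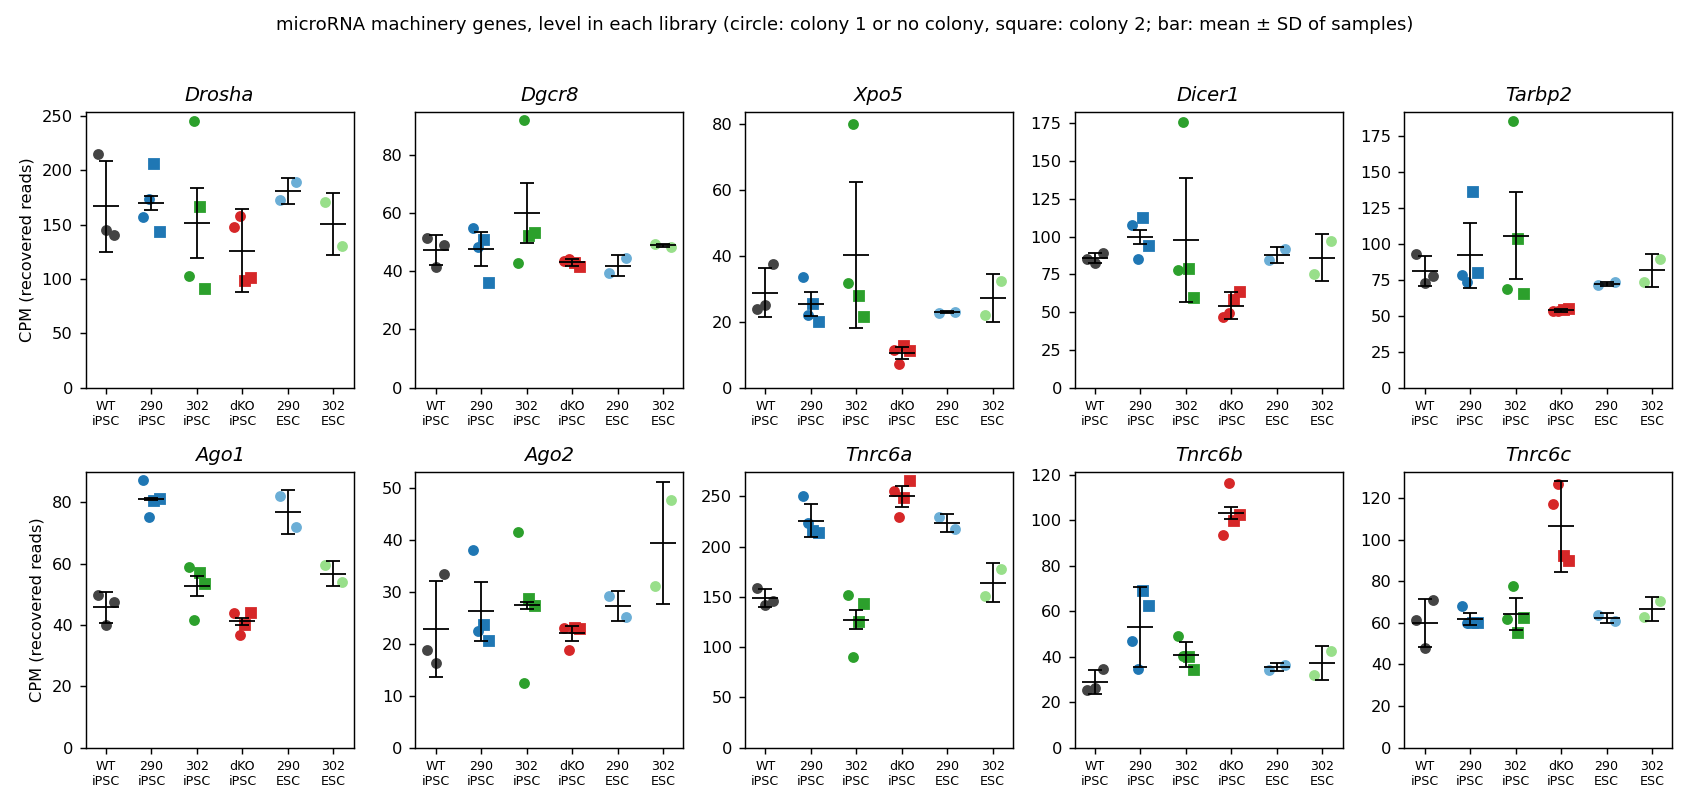
Level of each of the 10 genes in every library, in CPM on linear axes that start at 0, by group (the axis gives the deleted cluster, and dKO for double KO). Circles are libraries of colony 1 or of groups without colonies, squares are libraries of colony 2, and the bar is the mean ± SD over samples; the double KO libraries of Tnrc6b (93.3 to 116.4 CPM) sit above every other library, and those of Xpo5 (7.249 to 12.52 CPM) below every other.

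The 2 Microprocessor genes were not called in any comparison. Drosha (chr15:12824815-12935291, plus strand) lay between 140.0 and 214.7 CPM in WT, between 142.9 and 206.2 in miR-290KO iPSC, between 90.8 and 245.8 in miR-302KO iPSC and between 97.72 and 158.3 in double KO. In double KO the 2 colonies did not overlap, at 147.6 and 158.3 CPM for colony 1 and 97.72 and 100.6 CPM for colony 2, and the group overlapped WT. Its difference from WT was -0.36 ± 0.24 (SE; limma, 95% interval -0.89 to 0.17, adjusted p = 0.2374). Dgcr8 (chr16:18253948-18289246, minus strand), which encodes the subunit that recognises the hairpin, was at 41.52 to 44.37 CPM in double KO and 41.55 to 51.7 CPM in WT. Its 4 double KO libraries were close together and fell within or just below the WT range. The difference was -0.09 ± 0.21 (SE; limma, 95% interval -0.55 to 0.38, adjusted p = 0.7639). Its highest value, 92.17 CPM, was in the miR-302KO library that stood apart, where Drosha was also at its highest, 245.8 CPM.

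Xpo5 (chr17:46202782-46243598, plus strand), which encodes the exporter of microRNA precursors, had the largest fall of the 10 genes. Its levels were 23.84, 24.94 and 37.3 CPM in the WT libraries and 11.35, 7.249, 12.52 and 11.13 CPM in the double KO libraries. Every double KO library was below every other library of the 19. The group means were 28.7 ± 7.47 CPM (SD, n = 3) and 10.6 ± 1.79 CPM (SD, n = 2 colonies), and the difference was -1.38 ± 0.32 (SE; limma, adjusted p = 0.003631), a 2.61-fold fall. The fall was called under all 28 alternative settings, with differences from -1.81 to -1.11. In miR-290KO iPSC the levels were 33.61, 22.0, 25.35 and 19.86 CPM, and in miR-302KO iPSC 31.81, 79.89, 27.64 and 21.42 CPM. Both single knockouts overlapped WT, with differences of -0.18 ± 0.32 and 0.31 ± 0.32 (SE; limma, adjusted p = 0.8236 and 0.6492). The value of 79.89 CPM belongs to the library that stood apart, and without it the miR-302KO difference from WT was -0.01. The double KO difference departed from the sum of the single differences by -1.52 ± 0.48 (SE; limma, adjusted p = 0.03764, beside 23.6% of all genes called for this contrast), and by -1.19 without that library (adjusted p = 0.04234). Over the 28 settings the adjusted p of that departure ran from 0.006666 to 0.1552. It was no longer called in 10 of them, with -0.997 and the highest p without miR-302KO colony 1, which holds that library, and also without either miR-290KO colony, double KO colony 1, WT library 1 or 2, or either miR-290KO ESC library.

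Dicer1 (chr12:104687742-104751952, minus strand), which encodes the enzyme that cuts the hairpin to its mature length, was lower in double KO by a smaller amount. The WT libraries were at 85.15, 82.83 and 89.34 CPM, and the double KO libraries at 46.55, 49.51, 57.99 and 63.17 CPM. The ranges did not overlap, and the double KO group was the lowest of the 6. The means were 85.8 ± 3.30 CPM (SD, n = 3) and 54.3 ± 8.87 CPM (SD, n = 2 colonies), with a difference of -0.62 ± 0.23 (SE; limma, adjusted p = 0.04019). This call was lost in 10 of 28 alternative settings, among them without either double KO colony (adjusted p = 0.2471 without colony 1 and 0.05033 without colony 2), without any 1 of the WT libraries (0.08094, 0.06617 and 0.0898) and without either miR-290KO ESC library (0.05704 and 0.05713). In every setting the difference stayed negative, between -1.05 and -0.45, with an adjusted p from 0.003831 to 0.2471. Dicer1 was at 107.6, 85.32, 112.4 and 94.09 CPM in miR-290KO iPSC and at 77.86, 176.1, 78.36 and 59.17 CPM in miR-302KO iPSC, with 176.1 again in the library that stood apart. Neither single knockout passed the test against WT (differences of 0.22 and 0.05), and without that library the miR-302KO difference was -0.23.

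Tarbp2 (chr15:102518192-102523676, plus strand), whose product binds double-stranded RNA beside Dicer1, was at 92.78, 72.87 and 77.62 CPM in WT and at 52.93, 53.21, 54.12 and 54.42 CPM in double KO. The double KO libraries were the lowest of all 19 and nearly equal to each other. The difference of -0.54 ± 0.22 (SE; limma, 95% interval -1.02 to -0.06, adjusted p = 0.05776) missed the threshold. It passed in 10 of 28 alternative settings, among them without the miR-302KO library that stood apart (adjusted p = 0.03427), without miR-290KO colony 1 (0.04991) and without either miR-302KO colony (0.04144 and 0.04076). Over all settings the adjusted p ran from 0.005894 to 0.2147. In miR-290KO iPSC the levels were 78.46, 73.46, 135.8 and 79.27 CPM and in miR-302KO iPSC 68.71, 184.9, 102.9 and 64.99 CPM, both overlapping WT.

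The Argonaute genes were not called in double KO against WT. Ago1 (chr4:126435012-126468583, minus strand) was at 49.78, 40.04 and 47.44 CPM in WT and at 44.04, 36.61, 40.08 and 43.84 CPM in double KO, where the ranges overlapped (difference -0.10 ± 0.18 SE; limma, adjusted p = 0.6585). In miR-290KO iPSC the levels were 87.25, 75.24, 80.32 and 81.06 CPM, each above every WT, miR-302KO and double KO library. The means were 45.8 ± 5.08 CPM (SD, n = 3) in WT and 81.0 ± 0.388 CPM (SD, n = 2 colonies) in miR-290KO, and the rise was 0.83 ± 0.18 (SE; limma, adjusted p = 0.04215), or 1.78-fold. The call was lost in 14 of 28 settings, with differences between 0.63 and 0.90 and an adjusted p from 0.01354 to 0.2877 over all settings: without either miR-290KO colony (adjusted p = 0.1176 without colony 1 and 0.2877 without colony 2), without any 1 of the WT libraries (0.09252, 0.1179 and 0.08356), without either double KO colony (0.05236 and 0.05161), without either miR-290KO ESC library (0.07719 and 0.07708), and in 5 other settings of scaling, trend or samples. The miR-290KO ESC libraries, which were derived without reprogramming, were at 81.92 and 71.88 CPM, and the miR-302KO ESC libraries at 59.64 and 53.85 CPM. The ESC groups did not overlap, but their difference of 0.42 ± 0.20 was not called (SE; limma, adjusted p = 0.4029).

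Ago1 also gave the clearest departure from additivity. Double KO was 0.94 lower than miR-290KO (SE 0.20; limma, adjusted p = 0.003266), and the double KO difference departed from the sum of the single differences by -1.13 ± 0.27 (SE; limma, adjusted p = 0.01038). That departure was called under all 28 alternative settings, with an adjusted p of at most 0.03674. Ago1 was high in miR-290KO cells of both derivations, while in double KO cells, which also lacked miR-290, its libraries overlapped WT. Its 3′ UTR holds the pair of GCACTTA matches shown above.

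Ago2 (chr15:73095844-73184935, minus strand) encodes the Argonaute able to cut a fully paired target. It was at 18.87, 16.39 and 33.49 CPM in WT and at 23.08, 18.92, 23.17 and 22.93 CPM in double KO. All 4 double KO libraries fell inside the WT range, which was itself wide. The difference was 0.06 ± 0.30 (SE; limma, 95% interval -0.59 to 0.70, adjusted p = 0.8932), and its sign changed in 6 of 28 settings. In miR-302KO iPSC the lowest library was at 12.48 CPM and the highest at 41.56 CPM, both from colony 1, and the lowest was the library that stood apart. The highest group mean was that of miR-302KO ESC, 39.5 ± 11.7 CPM (SD, n = 2), above miR-302KO iPSC by 0.63 ± 0.33, a difference that was not called (SE; limma, adjusted p = 0.4911). Without the library that stood apart it was 0.19.

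**Figure D2:**
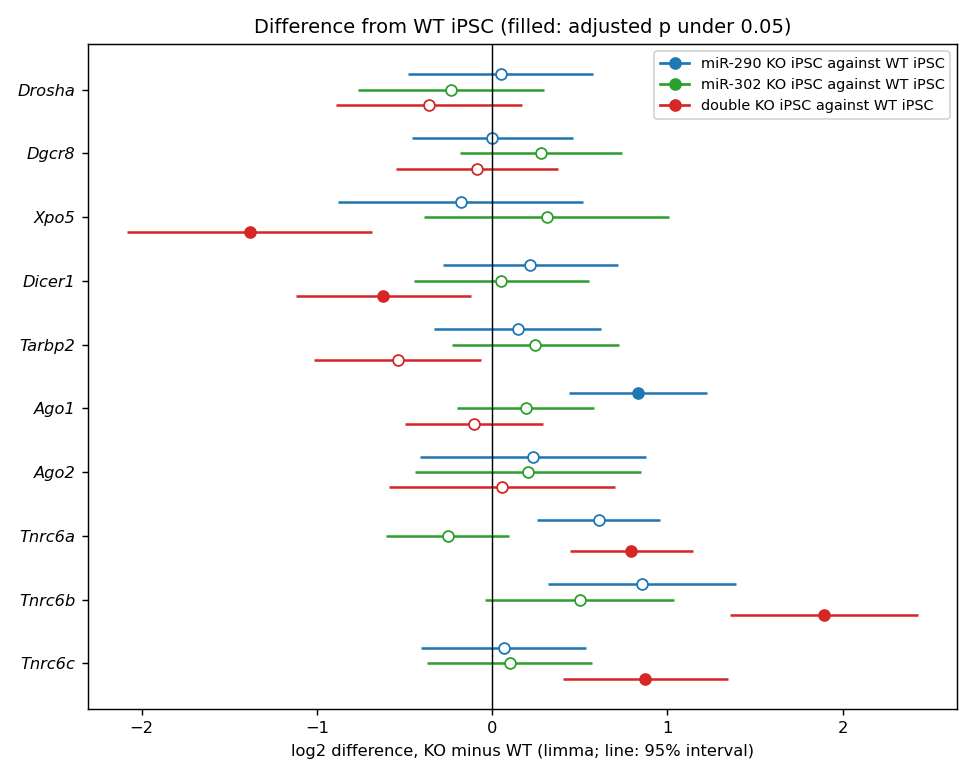
Log2 difference from WT iPSC (x axis) for each of the 10 genes (y axis) in miR-290KO (blue), miR-302KO (green) and double KO (red) iPSC, from limma, with the 95% interval as a line; filled points have an adjusted p under 0.05. The filled points are Xpo5, Dicer1, Tnrc6a, Tnrc6b and Tnrc6c in double KO and Ago1 in miR-290KO, and no miR-302KO point is filled.

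The 3 GW182 genes, which encode the scaffolds of the silencing complex, were all higher in double KO. Tnrc6b (chr15:80711313-80941085, plus strand) had the largest rise of the 10 genes. It was at 25.26, 26.29 and 34.72 CPM in WT and at 93.3, 116.4, 99.82 and 102.4 CPM in double KO. No library of any other group reached the lowest double KO library. The means were 28.8 ± 5.19 CPM (SD, n = 3) and 103 ± 2.67 CPM (SD, n = 2 colonies), and the difference was 1.89 ± 0.25 (SE; limma, adjusted p = 5.686e-05), or 3.71-fold, called under all 28 settings (1.46 to 2.04). In miR-290KO iPSC the libraries were at 46.96 and 34.46 CPM for colony 1 and 68.82 and 62.18 CPM for colony 2, so the colonies differed and 1 library lay inside the WT range. The miR-290KO difference of 0.85 ± 0.25 was not called (SE; limma, adjusted p = 0.1081). The miR-302KO libraries, at 49.1, 40.23, 39.88 and 33.94 CPM, overlapped WT at their lower end (difference 0.50 ± 0.25 SE; limma, adjusted p = 0.355). Double KO exceeded both miR-290KO (1.04 ± 0.27 SE; limma, adjusted p = 0.0112) and miR-302KO (1.39 ± 0.27, adjusted p = 0.001228). The double KO difference did not depart from the sum of the single differences beyond the error (0.54 ± 0.37 SE; limma, adjusted p = 0.3065). The miR-290KO ESC libraries were at 34.12 and 36.54 CPM for Tnrc6b, near the highest WT library. They differed from miR-290KO iPSC by -0.54 ± 0.27, which was not called (SE, limma, adjusted p = 0.9985). The miR-302KO ESC libraries were at 31.79 and 42.34 CPM. Tnrc6b holds 2 of the AGCACTT matches shown above.

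Tnrc6a (chr7:123123885-123195296, plus strand) was at 158.7, 141.6 and 146.3 CPM in WT and at 255.8, 229.6, 248.7 and 265.3 CPM in double KO. The groups did not overlap, and the difference was 0.79 ± 0.16 (SE; limma, adjusted p = 0.001529), or 1.73-fold. In miR-290KO iPSC it was at 250.8, 223.9, 215.2 and 213.9 CPM, each above every WT library, with a difference of 0.61 ± 0.16 that was not called (SE; limma, adjusted p = 0.08178). Without the miR-302KO library that stood apart, which enters the shared estimate of spread, that adjusted p was 0.04645. In miR-302KO iPSC it was at 151.7, 90.04, 125.2 and 143.3 CPM, overlapping WT, with 90.04 in the library that stood apart. The 2 single knockouts differed from each other: Tnrc6a was 0.86 ± 0.18 higher in miR-290KO than in miR-302KO iPSC (SE; limma, adjusted p = 0.03064, and 0.66 with an adjusted p of 0.04795 without that library), the only 1 of the 10 genes called in that comparison (2.25% of all genes, of which 82.6% were higher, and 54.6% with median centring). The call was lost in 12 of 29 settings (adjusted p from 0.00489 to 0.266), among them without either miR-290KO colony, without miR-302KO colony 1 and without either miR-290KO ESC library. The ESC libraries lay in the same order, at 229.5 and 217.4 CPM in miR-290KO and 150.8 and 177.7 CPM in miR-302KO, but the ESC difference of 0.43 ± 0.18 was not called (SE; limma, adjusted p = 0.3248).

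Tnrc6c (chr11:117654289-117763439, plus strand) was at 61.31, 47.99 and 70.8 CPM in WT and at 117.3, 126.5, 92.27 and 89.7 CPM in double KO. The lower double KO colony was still above every other library. The difference was 0.87 ± 0.22 (SE; limma, adjusted p = 0.005285), or 1.83-fold, and without double KO colony 1 it was 0.66 with an adjusted p of 0.07582 (0.0008439 to 0.1081 over the 28 settings). The genes of chromosome 11 as a whole had a median difference of 0.32 in double KO, above the 0.16 of all genes, and with each chromosome centred on its own genes Tnrc6c differed by 0.57 (limma, adjusted p = 0.02891). In the other 5 groups its means ran from 60.0 to 66.6 CPM, with neighbouring ranges overlapping. With each library centred on its median gene, the scaling least favourable to rises, the 3 GW182 differences in double KO were 0.37 for Tnrc6a, 1.46 for Tnrc6b and 0.45 for Tnrc6c, with limma adjusted p of 0.09105, 0.0003823 and 0.1081.

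The order of the 6 groups separated the genes further. For Xpo5, Dicer1 and Tarbp2 the double KO group was lowest and apart from the next group, and the other 5 groups overlapped in sequence, although for Dicer1 the lowest miR-302KO iPSC library, 59.17 CPM, lay within the double KO range. For Tnrc6b and Tnrc6c the double KO group was highest and apart from the next. Ago1 and Tnrc6a instead broke between the miR-302KO ESC and miR-290KO ESC groups: the miR-290KO groups of both derivations lay above, and double KO lay with them for Tnrc6a and at the bottom for Ago1. For Drosha, Dgcr8 and Ago2 every neighbouring pair of groups overlapped. Counted over libraries, 6 of the 10 genes did not overlap between double KO and WT, beside 63% of the genes with reads, 2 between miR-290KO and WT (Ago1 and Tnrc6a, beside 21.6%) and 0 between miR-302KO and WT (beside 9.65%).

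Double KO was also set against each single knockout, in comparisons that share the double KO samples. Against miR-290KO iPSC, 6 of 10 genes were called, beside 32.4% of all genes: Xpo5 (-1.20), Dicer1 (-0.84), Tarbp2 (-0.68) and Ago1 (-0.94) were lower and Tnrc6b (1.04) and Tnrc6c (0.81) higher. Of all calls in that comparison 48.1% were higher, and 35% with each library centred on its median gene. The Tarbp2 call (limma, adjusted p = 0.0451) was the least firm, lost in 14 of 29 settings, while that of Ago1 was lost in 1. Without miR-290KO colony 2, which holds a library at 135.8 CPM, the Tarbp2 difference was -0.46. Without double KO colony 1 the differences were -1.02 for Xpo5, -0.67 for Dicer1, -0.67 for Tarbp2, 1.02 for Tnrc6b and 0.60 for Tnrc6c. Fewer of the 10 genes were called without that colony or without either miR-290KO colony. The shares of all genes called in those fits are not given here. Against miR-302KO iPSC, 6 of 10 were called, beside 46.9% of all genes: Xpo5 (-1.69), Dicer1 (-0.67) and Tarbp2 (-0.79) were lower and Tnrc6a (1.05), Tnrc6b (1.39) and Tnrc6c (0.77) higher. There 60.8% of all calls were higher, and 37.9% with that centring. Without double KO colony 1 the differences from miR-302KO were -0.51 for Dicer1 and -0.77 for Tarbp2, and fewer of the 10 genes were called. Without the miR-302KO library that stood apart, in which the processing genes were high, Xpo5 stayed called at -1.37, while Dicer1 (-0.39, limma adjusted p = 0.1061) and Tarbp2 (-0.44, adjusted p = 0.1094) were no longer called (0.003895 to 0.3712 and 0.001962 to 0.1263 over the 29 settings). The Tnrc6c call was lost in 7 of the 29 settings, with a difference of 0.28 with each library centred on its median gene (adjusted p = 0.3548), 0.32 with each chromosome centred (0.2332) and 0.56 without double KO colony 1 (0.1472).

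Cell source gave no called difference among the 10 genes. Between ESC and iPSC of the same genotype 0 of 10 genes were called for miR-290KO and 0 of 10 for miR-302KO, beside 0% of all genes in both. At an unadjusted p under 0.05 in limma there were 0 and 1 of the 10 genes and 492 and 1343 of all genes, and voom on the recovered reads called 0 of the 10 in both. The intervals were wide: for Xpo5 they ran from -0.88 to 0.65 in miR-290KO and from -1.14 to 0.39 in miR-302KO, and for Ago2 in miR-302KO from -0.08 to 1.33, so differences of that size are not excluded. The gene under 0.05 in miR-302KO was Tnrc6a, at 0.41, and 0.21 without the library that stood apart. The Xpo5 interval in miR-302KO includes that library, with a difference of -0.37 ± 0.35, and without it the difference was -0.05 ± 0.29 (SE). Between the miR-290KO and miR-302KO ESC 0 of 10 were called (0.587% of all genes; 1 of 10 at an unadjusted p under 0.05 in limma, 0 by voom). The test of whether the miR-290KO against miR-302KO difference itself depended on cell source called 0 of 10, beside 0% of all genes (0 and 552 at an unadjusted p under 0.05).

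In miR-302KO iPSC against WT, 0 of 10 genes had an unadjusted p under 0.05 in limma, where 1928 of all genes did, and voom also called 0. Differences ran from -0.25 for Tnrc6a to 0.50 for Tnrc6b, and this range rests on the library that stood apart. Without it they ran from -0.54 for Drosha (-0.23 with it) to 0.65 for Ago2 (0.20 with it), and Tnrc6a was at -0.06. Dicer1 (0.05 to -0.23), Tarbp2 (0.25 to -0.10) and Xpo5 (0.31 to -0.01) changed sign, Dgcr8 went from 0.28 to 0.01, Ago1 from 0.19 to 0.32 and Tnrc6c from 0.10 to 0.03, and 0 of 10 were called. With that library the intervals allow a rise of up to 1.04 for Tnrc6b and 1.01 for Xpo5.

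The authors' deposited table of double KO against WT, which lists genes at an adjusted p under 0.05, holds 9 of the 10 genes, and 61.3% of the genes of the matrix. In the authors' deposited table Tnrc6a, Tnrc6b and Tnrc6c are higher and Drosha, Dgcr8, Xpo5, Dicer1, Tarbp2 and Ago1 lower, with Xpo5 at -1.68 and Tnrc6b at 1.60. The 4 genes listed as lower there but not called here are Drosha (-0.66), Dgcr8 (-0.39), Tarbp2 (-0.85) and Ago1 (-0.40), as the authors' deposited table gives them. For all 9 listed genes the authors' value lies below the one fitted here, for rises and falls alike. Tnrc6a is at 0.495 there and 0.79 here, and Ago1 at -0.40 and -0.10. With median-of-ratios scaling these 2 were 0.59 and -0.305 here. The cause of the shift was not tested, and the 4 genes are not a separate result. For miR-290KO the authors' deposited table holds Ago1 alone of the 10 (0.69; 10.6% of the genes of the matrix are listed), and for miR-302KO 0 of the 10 (0.321%).

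Beyond the 10 genes, 63 other genes of the pathway were followed. In double KO against WT 9 were higher, 13 lower and 41 not called, so 22 of 63 passed beside 49% of all genes. Their median difference was -0.11, beside 0.16 for all genes. Among 13 partners of primary processing 1 was called, the splicing factor Srsf3, which also helps Microprocessor choose its hairpins (-0.68 ± 0.16). Of 4 genes of nuclear transport 3 were lower, beside 21.5% of all genes called lower. Among the 3 was Ran, the GTPase on which exportin-5 depends (-0.75 ± 0.25), picked for naming after its value was seen.

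Among 15 dicing and loading genes 3 were higher and 4 lower, beside 27.4% of all genes called higher and 21.5% called lower. Prkra encodes the other double-stranded RNA-binding partner of Dicer1 beside Tarbp2. Its libraries lay between 8.476 and 11.5 CPM in WT and between 39.73 and 87.43 CPM in double KO, a difference of 2.48 ± 0.34 (SE; limma, adjusted p = 8.015e-05). The Tudor-domain nuclease gene Snd1 rose by 1.44 ± 0.21. The chaperone gene Hsp90aa1 and its cochaperone Fkbp4, part of the machinery that loads small RNA duplexes into Argonaute, fell by 1.31 and 0.93 on the log2 scale.

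Among 7 genes of precursor tailing and microRNA decay 2 were higher in double KO, beside 27.4% of all genes. Zswim8, the substrate receptor of a ubiquitin ligase that removes Argonaute bound to certain targets, was at 5.311 to 10.21 CPM in WT, 11.99 to 21.81 CPM in miR-290KO iPSC and 54.08 to 73.2 CPM in double KO. The 3 groups did not overlap, beside 21.6% of the genes with reads for miR-290KO iPSC against WT and 63% for double KO against WT. In miR-290KO ESC, however, Zswim8 was at 7.875 to 9.492 CPM, inside the WT iPSC range. The Zswim8 difference from WT was 3.22 ± 0.38 in double KO (SE, limma, adjusted p = 2.36e-05). In miR-290KO iPSC it was 1.15 ± 0.38 and was not called (limma, adjusted p = 0.1503).

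Among 24 silencing effectors 4 were higher, 5 lower and 15 not called, a share called below the 49% of all genes. Of the 10 subunit genes of the CCR4-NOT deadenylase in that list, counted after their values were seen, 3 were higher, 3 lower and 4 not called. The catalytic subunit genes Cnot6 (1.98 ± 0.20) and Cnot6l (2.04 ± 0.29) were among the higher, and Cnot10 (-0.97 ± 0.21) among the lower. The decapping enzyme gene Dcp2 was also lower (-0.89 ± 0.19). Cnot6l holds 1 AGCACTTA in its 3′ UTR and Dcp2 holds 5 AGCACTT matches, so genes with such letters were found on both sides. In the comparisons of miR-290KO and miR-302KO with WT, 0 of the 63 were called by limma, and 5 and 15 (7.94% and 23.8%) had an unadjusted p under 0.05, beside 16.7% and 15.1% of all genes. Without the miR-302KO library that stood apart these were 8 and 4 of the 63 (12.7% and 6.35%), beside 19.4% and 9.09% of all genes.

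**Figure D3:**
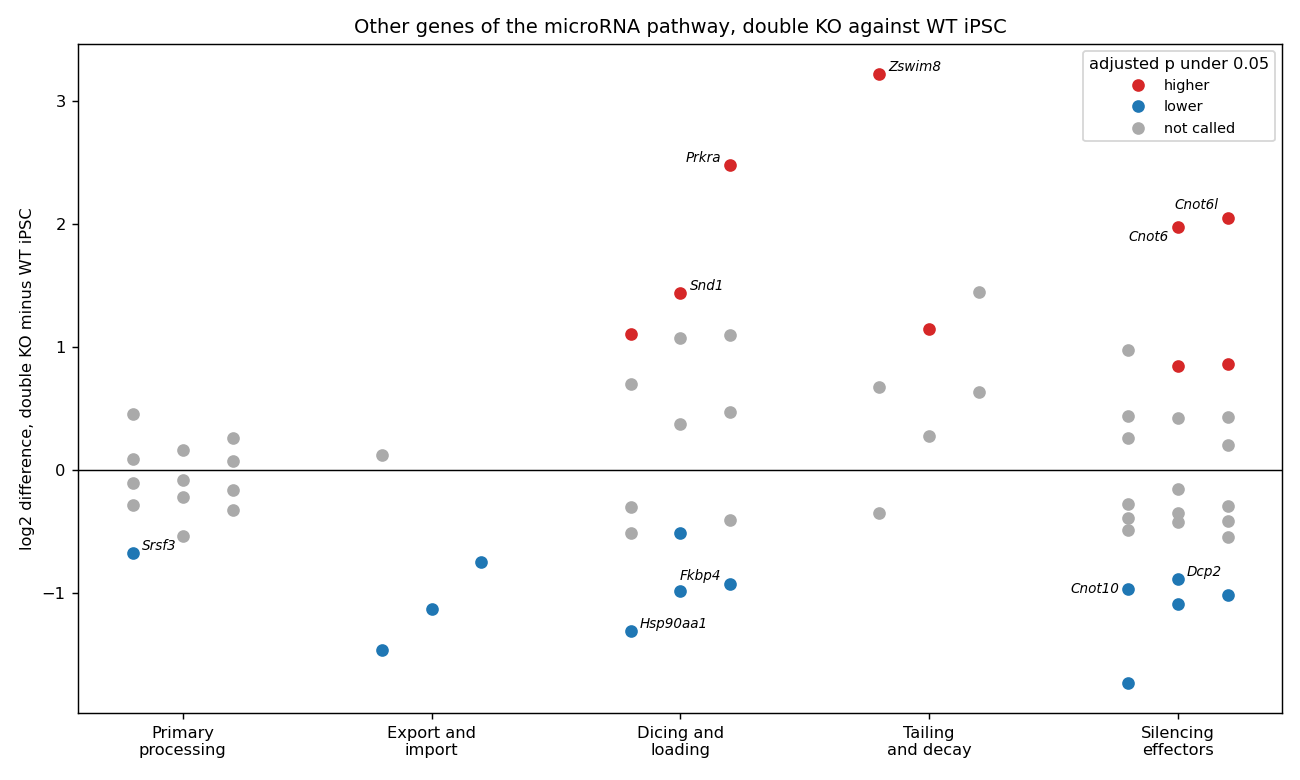
Log2 difference of double KO from WT iPSC (y axis) for 63 further pathway genes, grouped by step (x axis; sideways offsets only separate the points), with genes called higher in red, lower in blue and not called in grey. The 5 rises and 5 falls with the smallest adjusted p carry names, with Zswim8 highest among the named at 3.22 and Hsp90aa1 lowest at -1.31.

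The 4 genes with seed matches were set beside all genes with such letters. Over the 397 genes with AGCACTTA the median double KO difference from WT was 0.60, with 41.3% called higher and 12.1% called lower. Over the 2282 genes with any of the 3 words it was 0.42, and over the 9478 genes with none 0.10. Of the 4, Tnrc6b (1.89) and Tnrc6c (0.87) lay above the median of the genes with any match, and Ago1 (-0.10) and Dicer1 (-0.62) below it. The 2 above hold AGCACTT and the 2 below hold only GCACTTA. No median was taken over all genes with only the one or only the other word, and a role of the word held was not tested. Tnrc6a, which holds none, was called higher. In miR-290KO the medians were 0.29 with AGCACTTA, 0.25 with any match and 0.12 with none, and in miR-302KO -0.08, -0.09 and -0.12. Ago1 (0.83) and Tnrc6b (0.85) in miR-290KO stood above the median of each of these classes. So did Tnrc6a (0.61), which holds no match. Tnrc6b and Tnrc6a were not called there. Dicer1 (0.22) and Tnrc6c (0.07) lay below the median of the genes with any match.

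**Figure D4:**
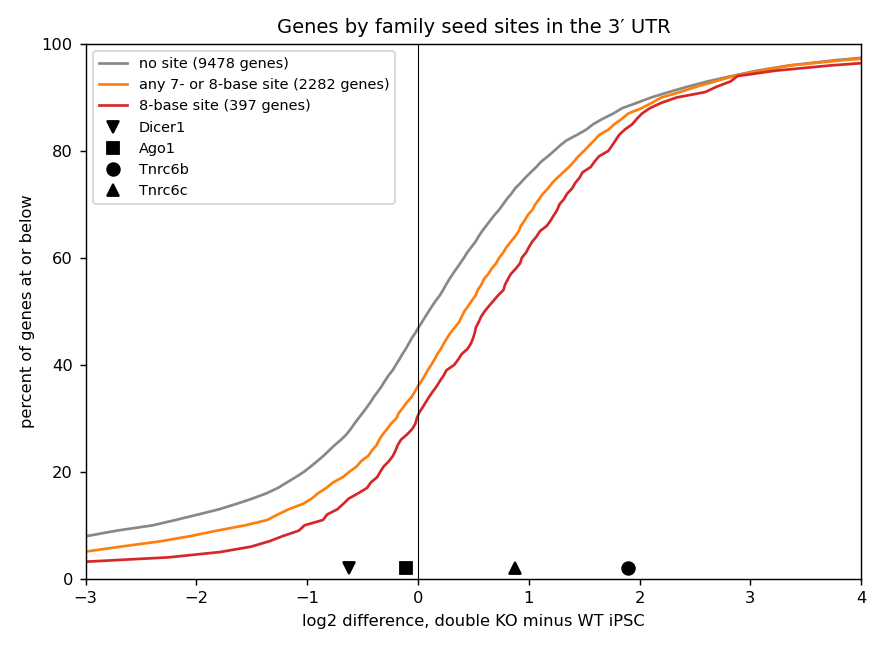
Percent of genes (y axis) at or below each log2 difference of double KO from WT iPSC (x axis) for genes with no match to the family seed, with any match of 7 or 8 bases, and with the match of 8 bases in the 3′ UTR; black symbols at the bottom mark the 4 genes with matches at their own difference. The curves are shifted to the right with medians of 0.10, 0.42 and 0.60.

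Across the 13 samples some of the 10 genes varied together, given as a description since samples share groups and double KO stands apart in several of these genes. Xpo5 and Dicer1 had r = 0.87, Dicer1 and Tarbp2 r = 0.83, Xpo5 and Tarbp2 r = 0.79, and Tnrc6b and Tnrc6c r = 0.83, while Xpo5 and Tnrc6a had r = -0.70. Without the library that stood apart these 5 values were 0.79, 0.78, 0.65, 0.81 and -0.62. Ago2 had r of at most 0.31 in size with any other member, Drosha at most 0.45 and Ago1 at most 0.46. Without that library the strongest values of these 3 genes were 0.51 for Ago2 (with Xpo5), -0.42 for Drosha (with Tnrc6b) and 0.60 for Ago1 (with Dicer1). Drosha and Dgcr8, partners in the Microprocessor, had r = 0.05, and 0.15 without it. The genes whose pattern over the same samples was most like that of Tnrc6b were Jak1 (r = 0.98), Ndst1, Scand1, Sptbn1 and Rab14. For Xpo5 they were D230025D16Rik (r = 0.98), Wwp2, Cdc73, Cct5 and Eif2b4, and for Tnrc6c Iffo1 (r = 0.98), Rnasek, Vps39, Tubg1 and Ptpn1.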

How the data were processed

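The deposited matrix holds log2 values for 19 libraries; its 6 columns from another study were not used. The submitters' processing notes name Trim Galore 0.66, STAR, Salmon 1.4.0, limma, DESeq2 1.34.0 and mm10, without roles. The authors' values behaved as log2 CPM with a prior of 0.91 to 3.52 reads, plus a constant per gene. Counts of whole reads were recovered for 12232 of 12778 genes (95.7%; 99.7% of their values within 0.02 of a whole read), and gave the CPM. From the authors' deposited tables log2 fold changes and p-values were copied. The authors' deposited mean normalized signal per gene, made from the libraries of a comparison per the file headers, served to check the recovered reads. The authors' deposited score, a fold change over its error per the file headers, was not used.

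With each colony's libraries averaged there were 13 samples. limma 3.58.1 (R 4.3.3; eBayes with trend, 7 residual degrees of freedom) was fitted to the log2 values over 6 groups, with Benjamini-Hochberg adjustment over all genes and 11 comparisons. On simulated data for double KO against WT (12778 genes, 200 of them changed per run), it recovered 17% of log2 changes of 1 and 60% of changes of 2. The genes and lists were chosen with earlier results of these data known. All 10 genes are named, with, of 63 further pathway genes, the 5 rises and 5 falls of smallest adjusted p in double KO and, for the 3 genes with the largest difference, the 5 most alike. Ran, added for its role, was chosen after its value was seen. Alternatives covered scaling, moderation, filters, pseudocounts, weights, blocks, voom and samples left out.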

Additional observations from a re-analysis of the deposited data

Results flagged for a closer look

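Among 30 sets of 4 libraries (10 genes in 3 knockout iPSC groups), 3 had a library far from the others by Dixon's criterion. For independent values chance alone meets it in about 1 of 20. The libraries here share colonies and the same libraries serve all 10 genes, so the count cannot be set against that rate. Tarbp2 was at 135.8 CPM in 1 library of miR-290KO colony 2, beside 73.46 to 79.27 CPM in the others. Ago2 was at 18.92 CPM in 1 library of double KO colony 1, beside 22.93 to 23.17 CPM. Tnrc6c was at 68.07 CPM in 1 library of miR-290KO colony 1, beside 59.74 to 59.84 CPM.

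The double KO difference from WT departed from the sum of the single-knockout differences for 2 of the 10 genes in limma, beside 23.6% of all genes called. Double KO cells had nearly lost pluripotency markers, so genotype and cell state cannot be told apart in these departures. The departure was -1.52 for Xpo5 (SE 0.48, adjusted p = 0.03764; no longer called in 10 of 28 settings) and -1.13 for Ago1 (SE 0.27, adjusted p = 0.01038; called in all 28). For Xpo5 double KO was lower than either single knockout. For Ago1 the double KO libraries overlapped WT while the miR-290KO libraries were above it.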

How the results depend on the processing

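Xpo5 and Tnrc6b in double KO against WT were called in all 28 settings, as was the departure of Ago1 from additivity. Over all comparisons 21 gene differences were called, none changed sign in any setting, and 6 were called in every setting; of 89 not called, 44 changed sign somewhere. For miR-290KO against WT (1) the count was 0 with median-of-ratios scaling, median centring, chromosome centring, no trend or only the groups compared. It was 2 without the library that stood apart, where 2.65% of all genes were called, beside 1.57% in the main fit. For miR-290KO against miR-302KO iPSC (1) it was 0 with those 5 changes or with sample weights, and 2 with libraries as samples and colony as a random block. Double KO against miR-302KO (6) gave 3 with only the groups compared, and additivity (2) gave 4 with median centring or voom and 1 with no trend or only the groups compared. Leaving out 1 colony, or 1 library of the groups without colonies, at a time gave 3 to 6 for double KO against WT, 0 to 1 for miR-290KO against WT, 1 to 6 and 3 to 6 for double KO against miR-290KO and miR-302KO, 0 to 1 between the single knockouts and 1 to 4 for additivity. Ago2 in double KO against WT turned to -0.15 with median-of-ratios scaling, -0.37 with median centring and -0.0012 with 5 CPM added, and ran from -0.16 to 0.37 with 1 sample left out. In double KO against WT, Drosha (-0.79) and Ago1 (-0.53) were called with median centring alone.

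Colony and replicate numbers were not found to pair samples: the deviations of same-numbered colonies correlated at -0.267, -0.028 and -0.012 between the 3 pairs of knockout iPSC groups. With colony number as a replicate block, which leaves few degrees of freedom, 0 of the 10 genes were called for double KO against miR-290KO, 3 for double KO against miR-302KO and 0 between the single knockouts; with libraries as samples and the replicate block of their number the last count was 2. The shares of all genes called with these blocks are not given here, and the cause of the differing counts was not tested. Groups hold 2 or 3 samples, so a gene not called is not shown to be unchanged. On simulated data with 200 genes changed per run, changes of log2 1 were mostly missed. In double KO against WT 49% of all genes were called, unlike that setting, so the recovery does not measure what was missed there.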
